A study of Mus musculus with 4 samples.

Results

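Emx2 and 8 HOX, MEIS and PBX genes were followed in mouse leukaemic cells: Emx2, Hoxa5, Hoxa7, Hoxa9, Hoxa10, Hoxb4, Meis1, Pbx2 and Pbx3, which are 9 of the 23240 gene rows of the deposited table. All encode homeobox transcription factors. The 8 HOX, MEIS and PBX genes were taken for their ties to leukaemia, and Emx2 was chosen by a measured value, its much higher RPKM with 4OHT than with EtOH. Its difference between these treatments is therefore given as a description and without a test.

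RNA had been sequenced in 4 libraries of bone marrow cells from leukaemic B6 mice, called RUNX1-FLT3ITD AML in the labels. Cells carried 2 kinds of Runx1 genotype, Runx1 delta/delta (replicate 1) and Runx1 delta/+ (replicate 2), so that genotype and replicate number cannot be told apart. Within each genotype 1 library came from cells treated with 200 nM 4OHT (4-hydroxytamoxifen) and 1 from cells given an equal volume of EtOH, the solvent. All 4 cultures were kept for 22 h in SFEM medium with FLT3L, SCF, IL3 and IL11, and all came from GFP+ BFP+ cells that lacked CD11b and Gr1, surface markers of maturing myeloid cells. The labels name no target on which 4OHT acts and do not say whether a library holds cells of 1 mouse or several, so p-values measure the spread left among these 4 samples. Depth recovered from the table was 36.7 M mapped reads with 4OHT and 34.6 M with EtOH for delta/delta cells, against 39.4 M and 33.7 M for delta/+ cells. Runx1 itself stood at 380 and 328 RPKM with 4OHT and at 568 and 555 RPKM with EtOH (delta/delta before delta/+). It was thus not lower in delta/delta cells with either treatment. A sum over a whole gene does not check the deleted part of an allele. The labels also name RUNX1 as part of this leukaemia, and whether some Runx1 reads came from an introduced RUNX1 was not tested.

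HOX proteins bind DNA weakly on their own. They gain affinity and specificity in complexes with TALE homeobox proteins, to which the PBX and MEIS families belong; MEIS proteins also hold PBX proteins in the nucleus. In blood, HOXA genes and MEIS1 are active in stem cells and early progenitors and are shut down as cells mature, and HOXA9 with MEIS1 is a well-studied pair in leukaemias with MLL fusions or NPM1 mutations. EMX2 is a homeobox factor best known from the developing forebrain and the urogenital tract.

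The start regions of 3 genes are shown, since Emx2 and Meis1 had the largest ratios of 4OHT to EtOH among the 9 and Pbx2 had much the same level in every library. Each run holds 250 bases before and 50 after the start that RefSeq annotates on GRCm38.p6, on the gene's own strand, and capitals mark a match to one of the motifs named after them. The Emx2 window is chr19:59458440-59458739 on the plus strand, the Meis1 window chr11:19018920-19019219 on the minus strand and the Pbx2 window chr17:34592009-34592308 on the plus strand.
Emx2: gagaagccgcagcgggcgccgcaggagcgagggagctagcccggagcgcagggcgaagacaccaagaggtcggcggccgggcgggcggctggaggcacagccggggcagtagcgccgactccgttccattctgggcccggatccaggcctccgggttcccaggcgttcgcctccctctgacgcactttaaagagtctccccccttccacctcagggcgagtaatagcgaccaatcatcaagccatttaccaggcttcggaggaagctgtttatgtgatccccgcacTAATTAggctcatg
Meis1: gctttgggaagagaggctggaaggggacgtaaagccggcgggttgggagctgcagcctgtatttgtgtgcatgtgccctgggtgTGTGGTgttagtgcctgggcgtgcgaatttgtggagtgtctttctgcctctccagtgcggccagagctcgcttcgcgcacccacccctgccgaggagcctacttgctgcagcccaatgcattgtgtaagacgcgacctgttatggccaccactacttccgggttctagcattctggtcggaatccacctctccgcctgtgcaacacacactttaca
Pbx2: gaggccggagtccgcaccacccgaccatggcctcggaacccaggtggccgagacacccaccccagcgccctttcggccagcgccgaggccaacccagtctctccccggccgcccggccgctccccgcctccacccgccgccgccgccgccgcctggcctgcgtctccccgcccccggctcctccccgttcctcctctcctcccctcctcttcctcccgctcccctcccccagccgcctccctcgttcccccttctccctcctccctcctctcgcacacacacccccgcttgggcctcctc
RefSeq held a start window for 8 of the 9 genes, with 2 for Hoxa10. The windows were searched on both strands for TGTGGT and TGCGGT (core motifs of RUNX factors), TAATTA (a homeodomain core), TGATNNAT (a composite site of PBX and HOX) and TGACAG (a MEIS site). Emx2 held TAATTA once, a motif found in 5.29% of 32851 start windows, and Meis1 held TGTGGT once, found in 16.8%. None of the 9 windows of these genes held the other 3, which occurred in 6.45% (TGCGGT), 8.85% (TGATNNAT) and 19.2% (TGACAG) of all windows. In base composition the Pbx2 window was 76.0% G or C with 29 CpG, the Emx2 window 64.3% with 26 CpG and the Meis1 window 58.3% with 15 CpG, beside medians of 52.7% and 7 over all windows.

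Levels are in RPKM, reads scaled to gene length and to mapped reads, and can be compared between genes. Whole reads were recovered from the same values, since 1 read in a gene of 1 kb was worth 0.0254 to 0.0297 RPKM in these libraries. Ratios of 4OHT to EtOH within a genotype are ratios of RPKM with exact 95% intervals that cover counting error only. A ratio against 0 reads is given as at least the value found with 3 reads in that library. It is not a 95% limit, since the exact 95% interval of 0 reads reaches 3.69 reads.

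Emx2 had 40.2 RPKM (3836 reads) with 4OHT and 0.134 RPKM (12 reads) with EtOH in Runx1 delta/delta cells. In Runx1 delta/+ cells it had 12.2 RPKM (1253 reads) with 4OHT and 0.0571 RPKM (5 reads) with EtOH. Both 4OHT libraries were thus far above both EtOH libraries, and the delta/delta library was the higher of the 4OHT libraries. The ratio was 301 (172 to 583) in delta/delta cells and 214 (91.6 to 661) in delta/+ cells, and these intervals overlap. On the log2(RPKM + 1) scale the differences were 5.18 and 3.65, and the pseudocount of 1 RPKM makes them smaller than the ratios. With 4OHT, 91.2% of the table's genes lay below Emx2 in delta/delta cells and 78.3% in delta/+ cells; with EtOH, 53.0% and 48.6% did. Its paralogue Emx1, a forebrain homeobox gene, was at 0 reads in all 4 libraries.

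**Figure D1:**
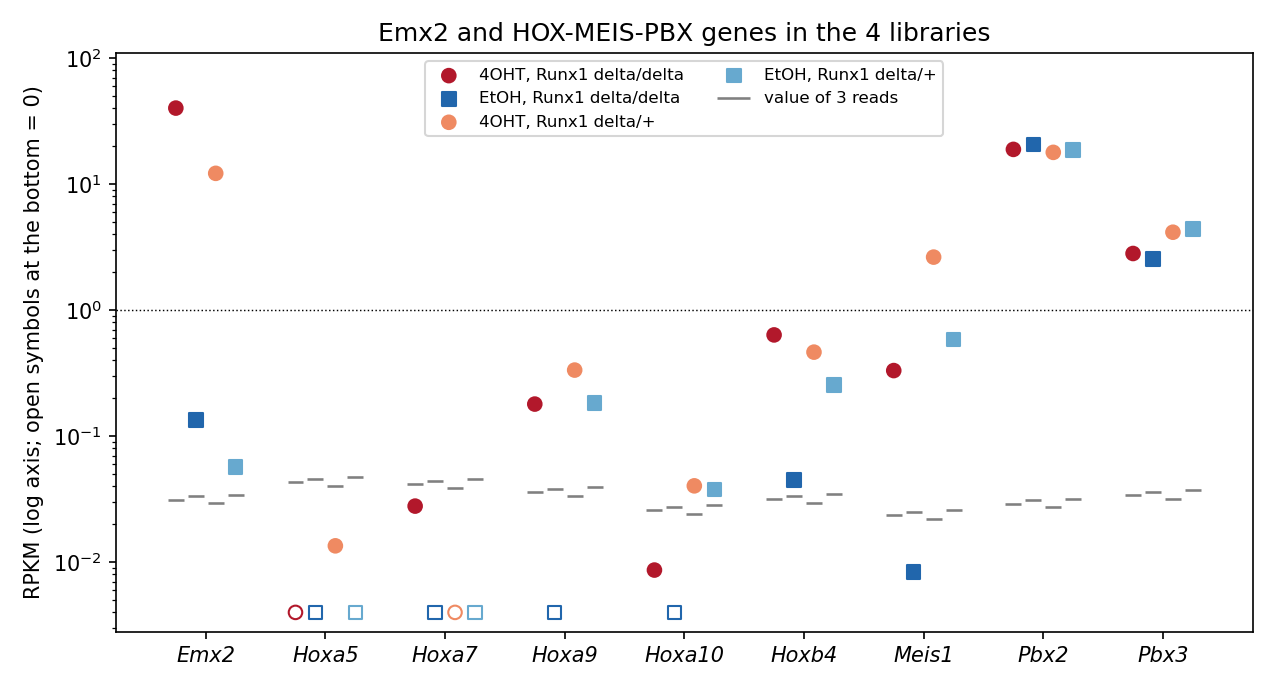
RPKM of each of the 9 genes (log axis) in the 4 libraries, circles for 4OHT and squares for EtOH. Open symbols at the bottom are values of 0, grey bars are the RPKM of 3 reads in that gene and library, and the dotted line is 1 RPKM. Emx2 has 40.2 and 12.2 RPKM with 4OHT and 0.134 and 0.0571 RPKM with EtOH, Pbx2 lies between 17.9 and 20.7 RPKM, and the 5 HOX genes stay under 1 RPKM.

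Among the HOX genes, Hoxb4, whose human counterpart expands blood stem cells when overexpressed, had the highest level of any of the 5. It had 0.637 RPKM (60 reads) with 4OHT and 0.0451 RPKM (4 reads) with EtOH in delta/delta cells, a ratio of 14.1 (5.24 to 53.5). In delta/+ cells it had 0.465 RPKM (47 reads) with 4OHT and 0.254 RPKM (22 reads) with EtOH, a ratio of 1.83 (1.08 to 3.18). Both 4OHT libraries were above both EtOH libraries, and the lowest of the 4 was EtOH in delta/delta cells. The intervals of the 2 ratios do not overlap, but they leave out the spread between cultures, and whether the genotypes respond differently could not be tested because a model with that term has 0 residual degrees of freedom.

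Hoxa9, the HOXA gene most often described in acute myeloid leukaemia, had 0.180 RPKM (15 reads) with 4OHT and 0 with EtOH in delta/delta cells, a ratio of at least 4.71. In delta/+ cells it had 0.335 RPKM (30 reads) with 4OHT and 0.183 RPKM (14 reads) with EtOH, a ratio of 1.83 (0.942 to 3.74). The library without a read was EtOH in delta/delta cells, where 3 reads would have been 0.0382 RPKM, and its groups overlapped: the 4OHT library of delta/delta cells had less Hoxa9 than the EtOH library of delta/+ cells.

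Hoxa10, Hoxa7 and Hoxa5, all studied as parts of the HOXA programme of MLL leukaemias, were at the limit of detection. Hoxa10 had 1 and 0 reads with 4OHT and EtOH in delta/delta cells and 5 and 4 reads in delta/+ cells, which is at most 0.0404 RPKM. The ratio in delta/+ cells was 1.07 (0.230 to 5.39). Hoxa7 had 2 reads with 4OHT in delta/delta cells and 0 in the other 3 libraries, and Hoxa5 had 1 read with 4OHT in delta/+ cells and 0 in the others. A difference in these genes was not detectable at this depth.

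Meis1, the HOX cofactor that speeds HOXA9-driven leukaemia in mice, had 0.332 RPKM (42 reads) with 4OHT and 0.00840 RPKM (1 read) with EtOH in delta/delta cells. In delta/+ cells it had 2.64 RPKM (358 reads) with 4OHT and 0.586 RPKM (68 reads) with EtOH. Meis1 was higher with 4OHT in both genotypes and higher in delta/+ cells with both treatments, so the EtOH library of delta/+ cells stood above the 4OHT library of delta/delta cells. The ratios of 4OHT to EtOH were 39.6 (6.72 to 1599) in delta/delta cells, resting on 1 read with EtOH, and 4.50 (3.47 to 5.93) in delta/+ cells.

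Of the PBX genes, which encode the TALE partners of HOX proteins, Pbx2 is broadly expressed and Pbx3 is described as a HOXA9 cofactor in leukaemia. Pbx2 had 18.9 RPKM (1945 reads) with 4OHT and 20.7 RPKM (2001 reads) with EtOH in delta/delta cells, and 17.9 RPKM (1972 reads) and 18.7 RPKM (1768 reads) in delta/+ cells. The 4 libraries lay close together, with ratios of 4OHT to EtOH of 0.915 (0.860 to 0.975) and 0.954 (0.894 to 1.02). Pbx3 had 2.82 RPKM (248 reads) with 4OHT and 2.55 RPKM (211 reads) with EtOH in delta/delta cells, and 4.16 RPKM (392 reads) and 4.40 RPKM (355 reads) in delta/+ cells. Its libraries parted by genotype and not by treatment: both delta/+ libraries were above both delta/delta libraries, and the ratios of 4OHT to EtOH were 1.11 (0.918 to 1.34) and 0.945 (0.816 to 1.09).

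The order of levels differed between libraries mainly through Emx2. It was the highest of the 9 with 4OHT in delta/delta cells, stood between Pbx2 and Pbx3 with 4OHT in delta/+ cells, came after both PBX genes with EtOH in delta/delta cells, and with EtOH in delta/+ cells lay below Pbx2, Pbx3, Meis1, Hoxb4 and Hoxa9. Pbx2 was above Pbx3 in all 4 libraries by more than either gene's spread over the 4. Hoxb4 and Meis1 changed places, Hoxb4 being higher in both delta/delta libraries and Meis1 in both delta/+ libraries. Hoxa9 was below both in every library, while Hoxa10, Hoxa7 and Hoxa5 could not be ordered at 0 to 5 reads.

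A test of 4OHT against EtOH was made where a gene's mean over the 4 libraries was at least 1 RPKM, which held for 3 of the 9 genes: Pbx2 (mean 19.0 RPKM), Emx2 (13.2 RPKM) and Pbx3 (3.48 RPKM). Meis1 missed this limit with a mean of 0.892 RPKM, and the 5 HOX genes had means of 0.00338 to 0.350 RPKM. In the limma model with genotype as a term, 32.4% of 9595 genes passed an adjusted p of 0.05 (2130 higher with 4OHT, or 22.2%, and 983 lower, or 10.2%), and 0 of the 2 genes other than Emx2 did, also at an unadjusted p. Pbx2 differed by -0.09 on the log2(RPKM + 1) scale (SE 0.13, 95% interval -0.43 to 0.25, limma, Benjamini-Hochberg adjusted p = 0.624). Pbx3 differed by 0.02 (SE 0.16, interval -0.38 to 0.42, adjusted p = 0.934). These intervals leave room for changes of either sign and do not show that the levels were equal. The median of all genes tested was 0.16; scaling the libraries by their median ratio moved it to -0.04 and gave 1441 higher and 1667 lower genes, with Pbx3 at -0.15 (adjusted p = 0.551).

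Without the limit on low values, where 13.3% of 17213 genes passed, 1 of the 8 other genes did: Hoxa9 rose by 0.21 (SE 0.04, limma adjusted p = 0.0438). This call rests on 15 and 0 reads in delta/delta cells and 30 and 14 in delta/+ cells (4OHT before EtOH). The counting interval of its ratio in delta/+ cells, 0.942 to 3.74, includes 1. In the same fit Meis1 differed by 0.80 (SE 0.21, limma adjusted p = 0.0776) and Hoxb4 by 0.44 (SE 0.11, adjusted p = 0.0773). Both were higher with 4OHT in both genotypes but short of the threshold. Hoxa10, Hoxa7 and Hoxa5 had adjusted p-values of 0.866, 0.666 and 0.833. By ratio alone, 1 of 5 genes with more than 3 reads in a library of each pair, Meis1, was over 2-fold higher with 4OHT in both genotypes, beside 10.8% of all such genes. In the authors' deposited table, whose Kal's Z-test compares 1 library with 1 library, the corrected p was 1 for all 8 of these genes in both replicates; that table gives Meis1 folds of proportions of 42.2 and 4.66.

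Between the genotypes, 11.6% of 9595 genes passed in the same model (449 higher in delta/delta cells, or 4.68%, and 663 lower, or 6.91%). Neither Pbx2 nor Pbx3 passed, and Pbx3 alone of them was under 0.05 without adjustment. Pbx3 was lower in delta/delta cells by both pairs, 0.679 times (0.577 to 0.798) with 4OHT and 0.579 times (0.486 to 0.689) with EtOH, and its fitted difference was -0.52 (SE 0.16, interval -0.92 to -0.12, limma adjusted p = 0.0934). Emx2 in delta/delta cells was 3.28 times (3.08 to 3.50) its delta/+ level with 4OHT and 2.34 times (0.767 to 8.48) with EtOH. The intervals of these ratios cover counting error only. The fitted difference of Emx2 was 0.87. Emx2 reached a mean of 1 RPKM only through its 4OHT libraries, by whose values it was chosen, so no test of this difference is given. Pbx2 differed by 0.11 (SE 0.13, interval -0.23 to 0.45, adjusted p = 0.616). Over all genes, 0 passed between the genotypes with no treatment term (limma; 880 at an unadjusted p under 0.05) or when any 1 library was left out (166 to 629).

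Meis1 showed the widest gap between the genotypes among the genes with a ratio for both treatments. Its delta/delta level was 0.126 times (0.0892 to 0.174) the delta/+ level with 4OHT and 0.0143 times (0.000358 to 0.0826) with EtOH. With no limit on low values its difference was -1.05 (SE 0.21, limma adjusted p = 0.0886), and that of Hoxa9 was -0.21 (SE 0.04, adjusted p = 0.0838); in that fit 0 of 17213 genes passed (0%), with 3906 at an unadjusted p under 0.05. Hoxa9 in delta/delta cells was 0.536 times (0.268 to 1.03) its delta/+ level with 4OHT and at least 4.79-fold lower with EtOH. Hoxb4 went opposite ways, at 1.37 times (0.920 to 2.05) with 4OHT and 0.177 times (0.0444 to 0.522) with EtOH. Of 7 genes with more than 3 reads in a library of each pair, 1 was over 2-fold lower in delta/delta cells with both treatments, Meis1, beside 6.52% of all such genes. A library at 0 stood at 3 reads in these counts.

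The HOX cluster genes as a whole were low or at 0 in these cells. All 39 were in the table and 0 reached a mean of 1 RPKM; 18 had no read in any library, 13 had 1 to 3 reads at most and 8 had more, among them Hoxa9, Hoxa10 and Hoxb4. Summed over the clusters there were 136 reads with 4OHT and 16 with EtOH in delta/delta cells and 109 and 62 in delta/+ cells, or 3.70, 0.463, 2.77 and 1.84 reads per M mapped reads in that order. Hoxb4 and Hoxa9 together made up 75 of the 136 reads and 77 of the 109 reads with 4OHT, and 4 of the 16 and 36 of the 62 with EtOH. Hoxc4 had 30 reads with 4OHT in delta/delta cells and 1 to 3 in the others. HOX genes lie close together with antisense partners, and the sources used here do not say whether reads were counted by strand.

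**Figure D2:**
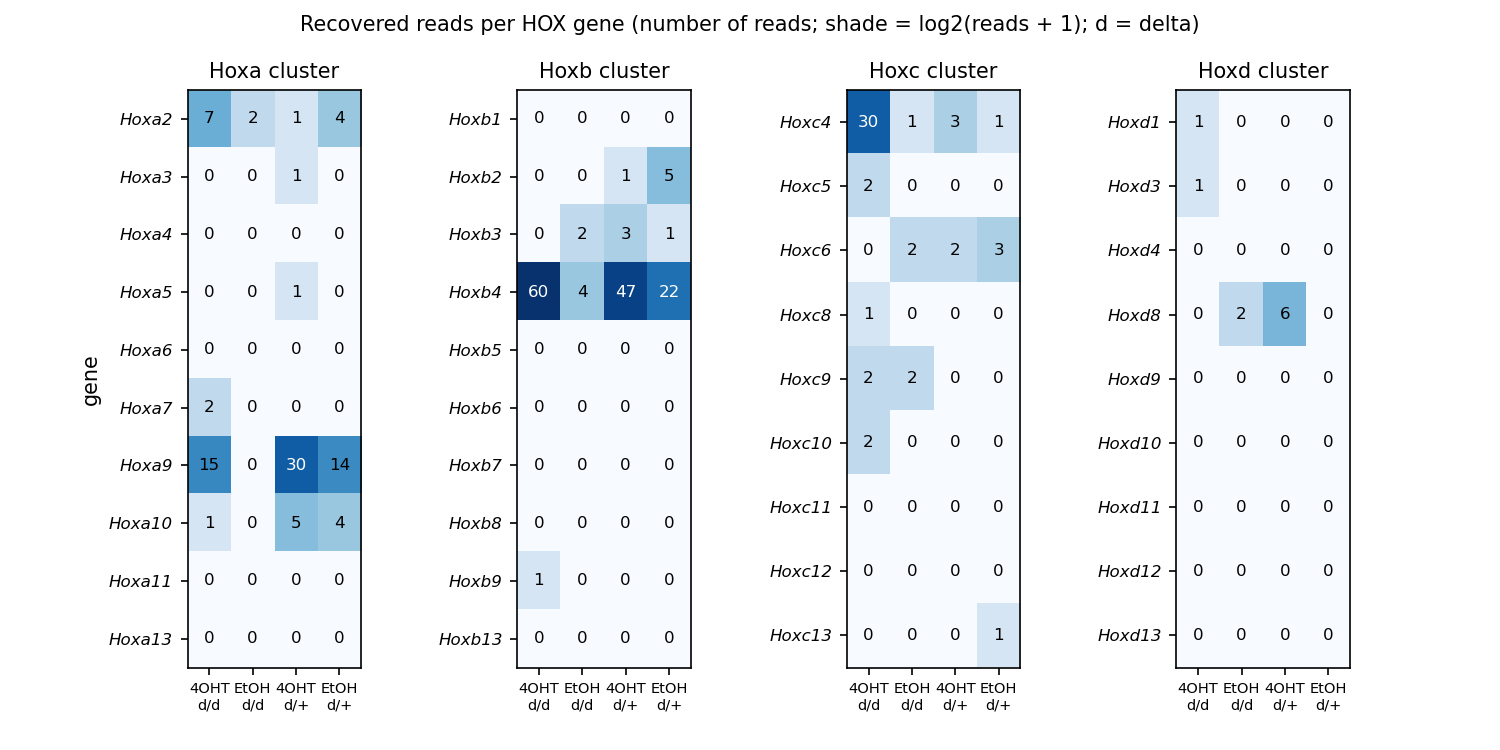
Recovered reads of HOX cluster genes (rows, by cluster) in the 4 libraries (columns; d is delta), each cell giving the number of reads and its shade log2(reads + 1). Hoxb4 has 60, 4, 47 and 22 reads and Hoxa9 has 15, 0, 30 and 14, and most other cells hold 0.

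The TALE genes, to which Pbx2, Pbx3 and Meis1 belong, numbered 18 in the table. With 4OHT 1 of the 5 tested was called, beside 32.4% of all genes. Tgif1, a TALE repressor of TGF-beta signalling, had 7.37 and 10.5 RPKM with 4OHT and 1.03 and 2.73 RPKM with EtOH (delta/delta before delta/+), and it rose by 1.84 (SE 0.17, limma adjusted p = 0.00381). Beside Pbx2 and Pbx3, the paralogue Pbx4 had 1.78 and 1.92 RPKM with 4OHT and 2.58 and 3.46 RPKM with EtOH, a difference of -0.49 that did not pass (adjusted p = 0.0832) but did after median-ratio scaling, where TALE genes had 1 rise and 1 fall. Of the paralogues of Meis1, Meis3 had 0.826 and 0.941 RPKM with 4OHT and 0.195 and 0.167 RPKM with EtOH. With no limit on low values it rose by 0.67 (SE 0.08, limma adjusted p = 0.0214), and 2 of 14 TALE genes passed in that fit, beside 13.3% of all genes. Meis2 had 9 and 2 reads with 4OHT and 0 with EtOH.

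Against all homeobox genes of the fixed lists (153 in the table, 98 with a read, 19 at or over a mean of 1 RPKM), Emx2 had the largest difference between 4OHT and EtOH in each genotype, as the gene chosen for that difference. Of the 18 others tested, 5 rose and 1 fell (beside 22.2% and 10.2% of all genes), and their median was 0.17, beside 0.16 over all genes. Hhex, a haematopoietic homeobox gene, rose by 2.05 (SE 0.24, adjusted p = 0.00591), with 102 and 101 RPKM with 4OHT and 17.0 and 33.1 RPKM with EtOH. Zeb1, Six5 and Homez rose by 0.61 to 0.65 and no longer passed after median-ratio scaling, where 2 homeobox genes rose and 3 fell. Hopx, which encodes a homeodomain protein that does not bind DNA, fell by 1.02 (adjusted p = 0.0153). Between genotypes Zeb2 and Zhx1 were lower in delta/delta cells, with differences of -0.69 and -0.66 (limma adjusted p = 0.0432 and 0.0472). Of the 18 genes other than Emx2, 2 were thus lower and 0 higher, beside 6.91% and 4.68% of all genes. In fits of 3 libraries, which cannot hold the genotype term, Hhex and Tgif1 passed without EtOH replicate 2 (adjusted p = 0.0246 and 0.0458), and 0 homeobox genes passed without any other library. With 4 libraries and no genotype term, 0 of 18 passed for 4OHT (limma; 5 at an unadjusted p under 0.05).

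**Figure D3:**
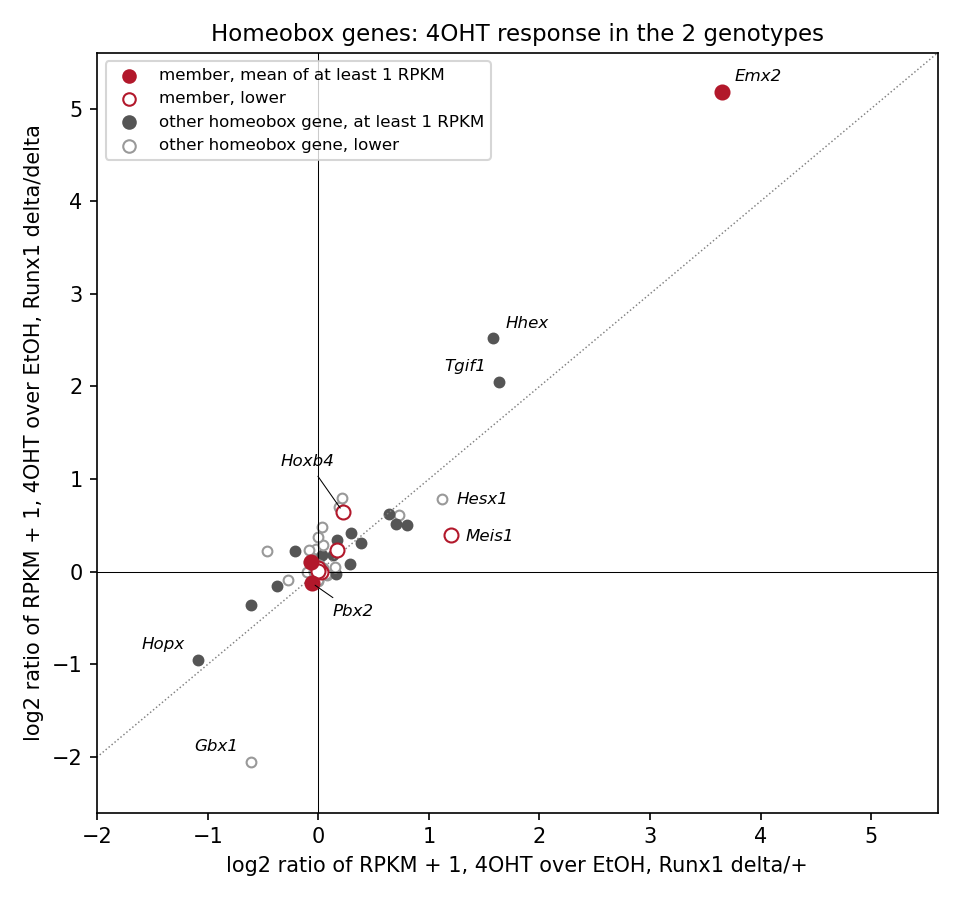
Difference between 4OHT and EtOH on the log2(RPKM + 1) scale in Runx1 delta/delta cells (vertical axis) and Runx1 delta/+ cells (horizontal axis) for the homeobox genes of the fixed lists. Red marks the 9 genes from Emx2 to Pbx3, filled symbols a mean of at least 1 RPKM, and the dotted line equal differences; Emx2 stands at 5.18 and 3.65, Meis1 at 0.40 and 1.20, and Pbx2 and Pbx3 lie near 0.

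**Figure D4:**
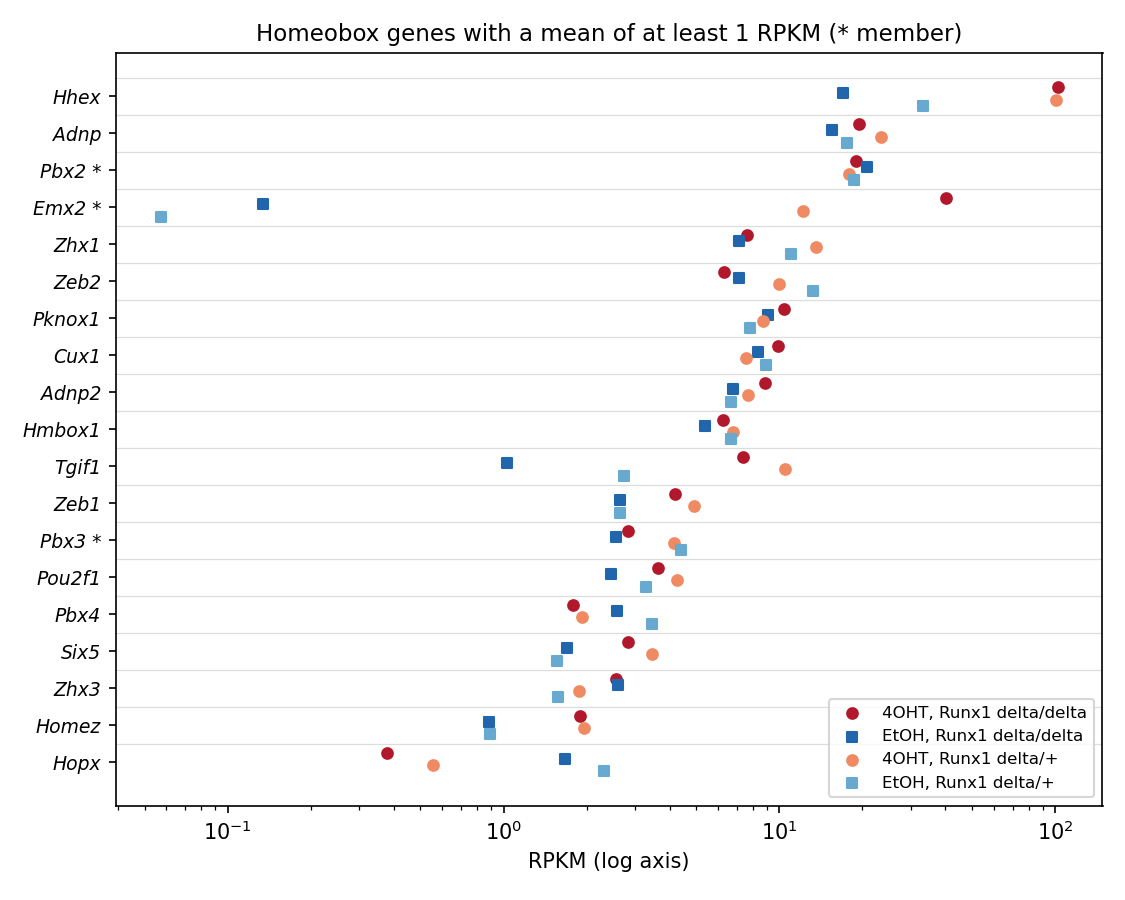
RPKM (log axis) of the 19 homeobox genes whose mean reached 1 RPKM, ordered by that mean, in the 4 libraries. Asterisks mark Emx2, Pbx2 and Pbx3; Emx2 spans 0.0571 to 40.2 RPKM, while Pbx2 stays between 17.9 and 20.7 RPKM and Pbx3 between 2.55 and 4.40 RPKM.

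Regulators that set HOX and Meis1 expression through chromatin were all measured (29 of 29 tested), with 6 higher and 3 lower with 4OHT and a median of 0.12. These counts lie near the shares of 22.2% and 10.2% over all genes, so the called genes are given as single genes and not as a result about the list. Mllt6, a fusion partner of MLL in human leukaemia, had 3.53 and 10.1 RPKM with 4OHT and 0.155 and 0.861 RPKM with EtOH and rose by 2.28 (adjusted p = 0.00370). Mllt3, another MLL partner, had 3.10 and 2.65 RPKM with 4OHT and 8.33 and 10.9 RPKM with EtOH and fell by 1.45 (adjusted p = 0.00651). Npm1, whose human mutations go with high HOX expression, rose by 0.79 with 4OHT (adjusted p = 0.0109) and was lower in delta/delta cells (-1.34, adjusted p = 0.0126), as were Suz12, Bmi1, Aff4 and Mllt6; in all 5 were lower and 1 higher, beside 6.91% and 4.68% of all genes. The 4OHT difference of Npm1 moved with single libraries, being 0.04 without EtOH replicate 1, 0.20 without 4OHT replicate 2, 1.38 without 4OHT replicate 1 and 1.54 without EtOH replicate 2, and its genotype difference was -0.86 without EtOH replicate 1. The genotype difference of Mllt6 was 0.30 without 4OHT replicate 2. Of the genes named here, only Mllt6 with 4OHT passed in a fit of 3 libraries, without 4OHT replicate 1 (adjusted p = 0.0291).

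Genes described elsewhere as targets of HOXA9 or MEIS1 in leukaemia were compared as well, with Hoxa9 under 1 RPKM in every library and Meis1 in all but 1. Of 11 tested, 7 rose and 1 fell with 4OHT (beside 22.2% and 10.2% of all genes), with a median of 1.16. After median-ratio scaling 5 rose and 1 fell. With no genotype term 0 rose and 1 fell, in a fit where 233 of 9595 genes passed. With no limit on low values 4 of 19 rose and 1 fell, beside 13.3% of all genes passing in either direction. Myb, a transcription factor of progenitors, rose by 1.82 (99.2 and 84.5 RPKM with 4OHT, 17.0 and 37.5 RPKM with EtOH, adjusted p = 0.0130), and Lmo2, an adaptor of blood transcription factor complexes, fell by 2.83 (29.8 and 22.7 RPKM with 4OHT, 205 and 178 RPKM with EtOH, adjusted p = 0.00124). Flt3, the receptor gene often described downstream of Meis1, had 16.8 and 12.6 RPKM in delta/delta cells and 39.7 and 46.3 RPKM in delta/+ cells (4OHT before EtOH). It was lower in delta/delta cells (-1.49, limma adjusted p = 0.0204). The labels name FLT3ITD as part of this leukaemia, and what share of the Flt3 reads came from it was not tested. Erg and Ikzf2 were also lower in delta/delta cells, so that 3 of the 11 were lower and 0 higher, beside 6.91% and 4.68% of all genes. Without EtOH replicate 1 the genotype differences of Erg and Ikzf2 were -0.84 and -0.05, against -1.39 and -0.85 with all libraries. Lmo2 passed also with no genotype term and without each library in turn, and Myb without EtOH replicate 2 (adjusted p = 0.0318).

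Markers of other cells moved with the treatment and with the genotype. Of 12 erythroid genes 11 fell with 4OHT, and 5 of 6 megakaryocyte genes fell, beside 10.2% of all genes. The summed level of the erythroid genes was 4687 and 3061 RPKM with 4OHT and 62899 and 33686 RPKM with EtOH. In mast cell and basophil genes, 3 of 6 rose (beside 22.2% of all genes), with sums of 144 and 28.6 RPKM with 4OHT and 12.4 and 15.5 RPKM with EtOH. Flt3, Myb and Ptprc were among the 4 of 9 progenitor genes that reached a mean of 1 RPKM. A library held 3 to 6 of these 9 genes over 1 RPKM. Kit was at 1.61 and 0.740 RPKM with 4OHT and at 0.0781 and 0.0973 RPKM with EtOH, and Cd34 at 0.395 RPKM at most. Between genotypes both neutrophil genes tested, S100a8 and S100a9, were higher in delta/delta cells (1.58 and 0.78, limma adjusted p = 0.0126 and 0.0351), and so was Ly6c2, a gene of the gated Gr1 antigen (1.30, adjusted p = 0.0378). Of the 12 erythroid genes 4 were higher and 1 lower there, beside 4.68% and 6.91% of all genes. Pf4 of megakaryocytes and the leukocyte gene Ptprc were lower in delta/delta cells, by differences of -1.02 and -1.13. So was Pecam1 (-1.52), which was the only 1 of 8 stromal or endothelial genes tested and rose by 0.53 with 4OHT. Fewer cells of a type and less RNA per cell cannot be told apart in bulk RNA, and the part of these shifts in the values of Emx2, Meis1, the HOX genes, Flt3, Erg, Ikzf2 and Npm1 was not tested. B cell genes summed to 0.628 RPKM at most and T and NK cell genes to 0.273 RPKM at most.

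Next to Emx2, the antisense RNA gene Emx2os was the only neighbour with more than 1 read in a library, among 3 genes on each side in RefSeq of which 2 had a row. Its gene model starts 55 bases from that of Emx2 on GRCm38, so the Emx2 start window printed above spans the gap between them. Emx2os had 0.336 RPKM (62 reads) with 4OHT and 0 with EtOH in delta/delta cells, and 0.227 RPKM (45 reads) with 4OHT and 0 with EtOH in delta/+ cells. Both EtOH libraries were at 0, so the ratios are at least 19.5 and at least 12.8. With no limit on low values it rose by 0.36 (SE 0.04, limma adjusted p = 0.0224). The 2 gene models do not overlap, but without a stated use of strand, reads of Emx2 and of its antisense partner cannot be told apart where a transcript runs past its model. The gene 2700089I24Rik, 27779 bases away on the other side, had 1 read in all.

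The 5 genes whose centred log2(RPKM + 1) profile over the 4 libraries lay nearest to that of Emx2, among 8848 genes compared, were Metrnl, Abca2, Tuba8, Fut7 and Slc22a3. Their Euclidean distances from Emx2 were 0.90, 1.16, 1.17, 1.28 and 1.34, beside a median of 4.43. Metrnl, a secreted protein gene, had 27.7 and 19.2 RPKM with 4OHT and 0.375 and 0.541 RPKM with EtOH. Fut7, a fucosyltransferase gene of selectin ligands, had 12.9 and 6.16 RPKM with 4OHT and 0.0147 and 0.105 RPKM with EtOH. Like Emx2, all 5 were highest with 4OHT in delta/delta cells and next with 4OHT in delta/+ cells. A likeness over 4 libraries is a description, and these genes were picked for it.

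**Figure D5:**
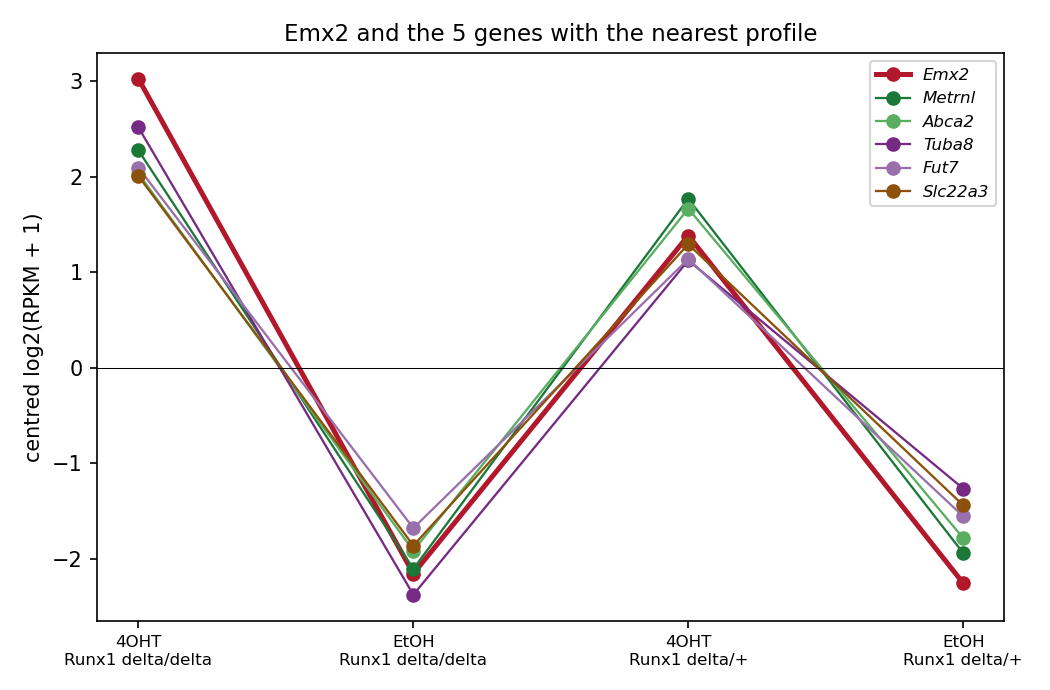
Centred log2(RPKM + 1), which is each gene's value minus its own mean over the 4 libraries, for Emx2 (thick line) and the 5 genes of nearest profile. The lines join libraries for reading only; all 6 genes are highest with 4OHT in Runx1 delta/delta cells and lie below their mean with EtOH in both genotypes.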

How the data were processed

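RNA of 4 libraries was sequenced after sorting, extraction with a phenol reagent and a TruSeq or NEBNext kit, per the labels' protocols, which do not say which library had which kit. Reads were placed on mouse build mm9, per the submitters' processing notes; what aligner, annotation, counting rule and strand setting were used is not stated in the sources used here. The authors deposited RPKM per gene and library, per the file headers, with a signed fold of proportions (a score here) and p-values of Kal's Z-test per replicate number, per the file headers.

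Whole reads were recovered from the deposited RPKM, whose low values are multiples of 1 read: 17213 of 17213 genes above 0 (100%) were whole within 0.02 reads. Read numbers were searched until values came out whole, so this share is no check. Gene lengths implied by the smallest read numbers were whole within 0.05 bp for 15522 of 17134 genes. The multiple of these read numbers was set by GRCm38 transcript lengths, and for genes such as Hoxa7 and Emx2os it could be larger. The absolute totals rest on the value shared by 192 of 831 single-transcript genes. limma 3.58.1 in R 4.3.3 was fitted to log2(RPKM + 1) for the 9595 genes whose mean reached 1 RPKM, with treatment and genotype as terms and a trended prior (1 residual and 4.37 prior degrees of freedom), two-sided, with Benjamini-Hochberg adjustment over all genes and a threshold of 0.05. Libraries of 1 genotype share a replicate number and deviated together (correlation 0.664 across genes). Ratios carry exact Clopper-Pearson intervals, which cover counting error only, and those against 0 reads use a floor of 3 reads without an interval. The fit was tested on simulated data. Alternatives were the pseudocount, the limit on low values, median-ratio scaling, the prior, the genotype term and leaving out each library. RefSeq tables of GRCm38.p6 gave start windows and neighbours, which build differs from that of the reads. Transcripts of GENCODE M21 were used to check the windows' strand. For the Hoxa7 window this check could not be made, since no transcript held its last bases.

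The members and gene lists were chosen with earlier results of these data known. Named genes are the 9 members, list genes that passed (at most 6 a list and comparison, not all of which are named), the 5 of nearest profile to Emx2 and the genes beside Emx2; Meis2, Meis3, Pbx4, Kit, Cd34, Emx1 and Hoxc4 were named after their values were seen. Some list genes enter the counts but are not reported here by name.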

Additional observations from a re-analysis of the deposited data

Results flagged for a closer look

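The ratio of 4OHT to EtOH had opposite signs in the genotypes for 2 of the named genes, and the difference between the genotypes was not tested. For Pbx3 the log2 ratio of RPKM + 1 was 0.11 in Runx1 delta/delta cells and -0.07 in Runx1 delta/+ cells. For Flt3 it was 0.39 in Runx1 delta/delta cells and -0.22 in Runx1 delta/+ cells.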

How the results depend on the processing

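For 4OHT against EtOH, the 3113 calls over all genes became 233 with no replicate block (no genotype term) and 39 to 251 when each library was left out, fitted without that term. The 6 calls among other homeobox genes became 2 at a mean of at least 5 RPKM, 0 with no replicate block (5 at an unadjusted p under 0.05) and 0 to 2 without each library; Lmo2 alone of the named list genes passed with no replicate block (adjusted p = 0.0244). Without a limit on low values 1 of the 8 HOX, MEIS and PBX genes passed, Hoxa9. For the genotypes, the 1112 calls became 0 with no limit, 646 at a mean of at least 5 RPKM, 1789 after median-ratio scaling, and 0 with no replicate block (no treatment term; 880 at an unadjusted p under 0.05) and without each library. The 2 homeobox calls became 1 with a pseudocount of 0.1 RPKM and with no trend, and 0 with a pseudocount of 5 RPKM, with no limit, at 5 RPKM, with no replicate block and without each library.

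Of 80 values of members under alternatives 72 kept their direction and side of the threshold, or moved by less than their spread. This count is no measure of sturdiness, since many of the values could not move. The limit on low values and the prior do not enter a fitted difference. With all libraries, which are balanced, the genotype or treatment term does not change it either. The count also holds the 4OHT difference by which Emx2 was chosen. Pbx3 for 4OHT turned to -0.15 with median-ratio scaling, -0.28 without EtOH replicate 1 and -0.20 without 4OHT replicate 2, within a range of -0.28 to 0.32 without each library. Emx2 between genotypes turned to -1.72 without 4OHT replicate 1 and -0.95 without EtOH replicate 2, within a range of -1.72 to 3.46. Its 4OHT difference of 4.42 was 6.86 with a pseudocount of 0.1 RPKM, 2.45 with 5 RPKM and 3.60 to 5.23 without each library. Meis1 for 4OHT, at 0.80 with all libraries, was 1.53 without 4OHT replicate 1 and 0.47 without EtOH replicate 1. Leaving out a library unbalances genotype and treatment; other causes were not tested. Depth limits Hoxa5, Hoxa7 and Hoxa10, which had 5 reads at most.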

Other observations

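Under a mean of 1 RPKM, 19 homeobox genes had more than 3 reads in a library of each pair. Over 2-fold higher with 4OHT in both genotypes were 3 of them, Meis1, Meis3 and Hesx1, and 1, Gbx1, was over 2-fold lower; of all 2794 such genes 21.9% were higher and 9.06% lower. Hesx1, a homeobox repressor of pituitary and forebrain development, had 0.718 and 1.29 RPKM with 4OHT and 0 and 0.0522 RPKM with EtOH (Runx1 delta/delta before Runx1 delta/+). Gbx1, a homeobox gene of the nervous system, had 0.0188 and 0.0175 RPKM (2 reads each) with 4OHT and 3.23 and 0.552 RPKM (324 and 54 reads) with EtOH. With no limit on low values Meis3 and Hesx1 rose by 0.67 and 0.95 (limma adjusted p = 0.0214 and 0.0202), while Gbx1, at -1.33 (adjusted p = 0.0789), and Meis1, at 0.80 (adjusted p = 0.0776), did not pass. These genes were named after their values were seen.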
